A study of Astyanax mexicanus with 12 samples.

Results

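Livers of Tinaja cavefish larvae were compared with livers of surface fish larvae at 5 days post-fertilization (dpf), which the study takes as its fed state. Both morphs belong to the Mexican tetra, Astyanax mexicanus, which has river-dwelling surface populations and blind populations in caves such as Tinaja. The comparison was defined by the labels alone and sets 3 libraries of Tinaja against 3 of surface fish, 6 of the 12 libraries of the series. The other 6 libraries come from the same morphs at 7 dpf, after fasting, and entered the fit for the filter on low counts, the scaling and the estimate of the spread. The livers of 40 larvae were pooled for every library. The labels name no transgene, drug or mutant, and embryos from different parent tanks of a morph were mixed. A p-value therefore measures the spread between pools from laboratory stocks, which may in part be technical.

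The liver of a fish larva makes most of the proteins of the blood plasma, takes up lipid that leaves the yolk and stores or burns it when no food arrives. Its messenger RNA is dominated by a small number of secreted proteins and lipid carriers, with many other genes at low levels, so a comparison of livers depends on where along this range of abundance the differences lie. Cave populations live with scarce and irregular food, and the comparison asks how the livers of the morphs differ at the age taken as fed. By the times the paper cites, visible yolk is gone before this age in surface larvae and only after it in cavefish. The paper also cites larger yolk depots in cavefish eggs. Morph and yolk state are therefore not separated here, and the part of yolk in the differences was not tested. The deposited table names genes by Ensembl identifiers, and 0 of 27420 identifiers matched the RefSeq table of gene names used here. The liver label could therefore not be checked against marker genes, pathways were not analysed here, and the genes are described by classes of abundance and of size of difference, with 2 higher and 2 lower genes given by identifier.

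The 6 libraries held 20.8, 20.04 and 13.5 M reads in genes in Tinaja replicates 1 to 3, against 10.6, 12.5 and 12.4 M in surface replicates 1 to 3. Tinaja libraries were thus deeper in every case, on average by 1.53-fold. Reads that aligned outside annotated genes made up 22.2%, 19.9% and 30.0% of the Tinaja libraries and 34.3%, 30.5% and 27.2% of the surface libraries (exact two-sided permutation p = 0.2). Unaligned reads made up 4.7%, 4.8% and 7.05% in Tinaja and 9.63%, 7.09% and 6.86% in surface fish (exact permutation p = 0.2). Both shares overlapped between the morphs through Tinaja replicate 3. Tinaja replicate 3 resembled the surface libraries in these measures, and surface replicate 1 was farthest from the Tinaja libraries. Libraries correlated at 0.946 to 0.963 within Tinaja, at 0.949 to 0.972 within surface fish and at 0.87 to 0.924 between the morphs, across genes, which are not independent replicates. The morphs were thus separated in every pair of libraries.

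Between the morphs 2804 of 17540 genes tested passed at a false discovery rate of 0.1 (16%). Tinaja was higher for 1538 of these (8.77%), where the log2 fold change had a median of 1.54, and lower for 1266 (7.22%), where the median was -1.85. With at least 2-fold in addition, the fold threshold of the study, 2230 genes remained (12.7%), 1210 higher and 1020 lower in Tinaja. The test was the quasi-likelihood test of edgeR with Benjamini-Hochberg adjustment over all genes tested. Over all genes the median log2 fold change was 0.00 on this scale. In bulk tissue a lower level can mean fewer cells of a type or less RNA per cell, and these cannot be told apart. Reads of both morphs were aligned to the same genome, and an effect of sequence differences between the morphs on the calls was not tested. The Tinaja and surface libraries of a gene did not overlap for 5752 genes (32.8% of those tested), and 2681 of the 2804 called genes were among them in the direction of their call. In the remaining 123 called genes the libraries of the morphs overlapped.

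The number of calls was 1238 without Tinaja replicate 1, 1599 without Tinaja replicate 2 and 2800 without Tinaja replicate 3. It was 1358, 1896 and 1638 without surface replicates 1, 2 and 3 in this order. Leaving out a library also makes its group smaller, so a fall does not by itself show dependence on that library. With library totals in place of trimmed mean of M values (TMM) factors, the median of all genes moved to -0.40, and 21.9% of 3227 passing genes were higher in Tinaja, against 54.9% here. A fit of the 6 libraries of 5 dpf alone passed 3007 genes, 1485 higher and 1522 lower in Tinaja. The small excess of higher genes was thus not kept there. Directions in the classes below are relative to the TMM scale.

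Genes were then placed in 5 classes by their mean level over the 6 libraries, in CPM (reads per M reads of the TMM-scaled library), each morph weighted equally. CPM is not divided by transcript length, so the classes order reads and not molecules. Under 1 CPM there were 2024 genes tested, between 1 and 10 CPM 7299, between 10 and 100 CPM 6994, between 100 and 1000 CPM 1115, and at 1000 CPM and over 108 genes. The share of genes called was close to the 16% of all genes in most classes, at 15.2% under 1 CPM, 16.7% from 1 to 10, 15.5% from 10 to 100, 15.2% from 100 to 1000 and 20.4% at 1000 CPM and over. A weak gene could pass the filter on low counts through a single group where it was high. The share under 1 CPM therefore depends on the filter and is not read as equal to the others. When no filter was used, 24457 genes were tested and 432 passed under 1 CPM. The direction of the calls was not spread in the same way. Under 1 CPM 140 genes were higher and 167 lower in Tinaja, and from 1 to 10 CPM 556 were higher and 663 lower. From 10 to 100 CPM 671 were higher and 416 lower. From 100 to 1000 CPM 151 were higher and 18 lower, and at 1000 CPM and over 20 were higher and 2 lower. The share of calls that were higher in Tinaja thus stood at 45.6%, 45.6%, 61.7%, 89.3% and 90.9% from the lowest to the highest class.

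**Figure D1:**
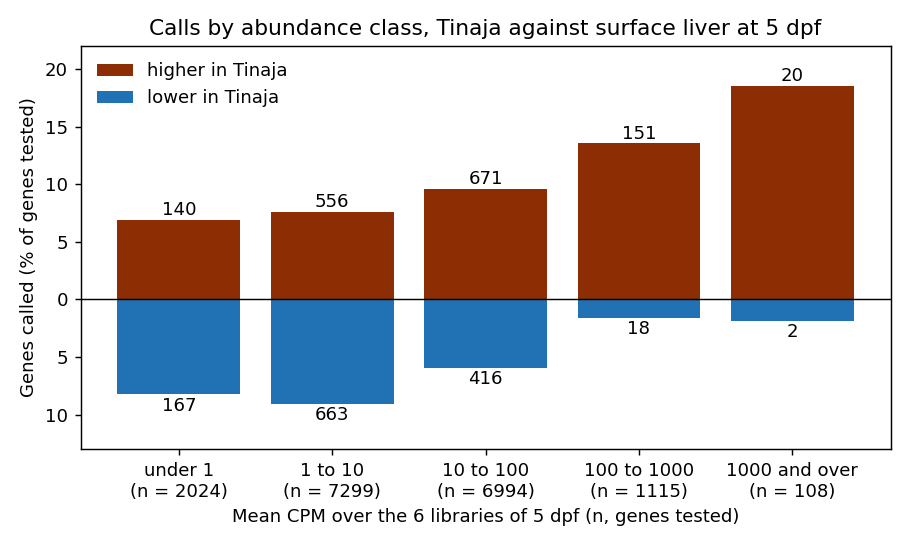
Share of the tested genes called at a false discovery rate of 0.1 (y axis, %) in each class of mean CPM (x axis), with genes higher in Tinaja drawn upward and genes lower in Tinaja drawn downward, and the number of genes beside each bar. The upward bars grow from 6.92% to 18.5% of the genes tested with abundance, and the downward bars are longer under 10 CPM, at 8.25% and 9.08%, than from 100 CPM up, at 1.61% and 1.85%. Under 10 CPM the longer bar changed sides when single libraries were left out, and with reads outside genes as a term the pattern along the classes was not kept.

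Called and uncalled genes together were ordered in the same way. The median log2 fold change over all tested genes of a class was -0.20 under 1 CPM, -0.07 from 1 to 10, 0.02 from 10 to 100, 0.27 from 100 to 1000 and 0.45 at 1000 CPM and over, and 44.6%, 46.3%, 52.0%, 71.8% and 79.6% of the genes of these classes had a positive value. Without surface replicate 1 the medians of the classes from 100 to 1000 CPM and of 1000 CPM and over were 0.14 and 0.27, and without Tinaja replicate 2 that from 10 to 100 CPM was -0.0096. With library totals the medians were -0.59, -0.47, -0.39, -0.16 and 0.04, in the same order along the classes. On that scale 26.7%, 19.1%, 18.4%, 47.8% and 64.3% of the calls in these classes were higher in Tinaja.

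The order along the classes rested on some libraries more than on others. The median gene of 1000 CPM and over lay at 0.42 and 0.44 in Tinaja replicates 1 and 2 and at -0.11 in Tinaja replicate 3, against -0.73 in surface replicate 1 and 0.00 and 0.02 in surface replicates 2 and 3, on the scale of log2(CPM + 0.5) relative to the mean of the group means. The morphs overlapped on this measure (exact two-sided permutation p = 0.3, where 3 against 3 libraries cannot go below 0.1). From 100 to 1000 CPM the medians were 0.22, 0.35 and -0.12 in Tinaja and -0.52, 0.02 and 0.04 in surface fish, again with overlap (exact permutation p = 0.3). Tinaja replicate 3 lay below surface replicates 2 and 3 in both classes, and surface replicate 1 lay below all others. From 1 to 10 CPM the Tinaja libraries, at -0.06, -0.09 and 0.01, all lay below the surface libraries, at 0.05, 0.01 and 0.03, Tinaja replicate 3 only just (exact permutation p = 0.1, the smallest possible). At this level the difference was small, at -0.08.

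**Figure D2:**
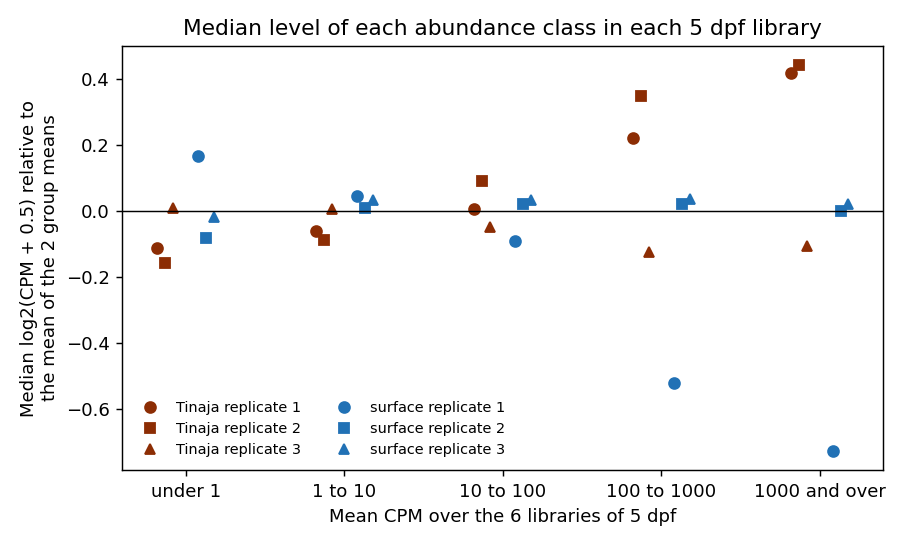
Median level of the genes of each abundance class (x axis, mean CPM) in each of the 6 libraries, as log2(CPM + 0.5) relative to the mean of the group means (y axis). Points spread little below 100 CPM. In the highest class Tinaja replicates 1 and 2 lie at 0.42 and 0.44, surface replicate 1 at -0.73, and the other 3 libraries between -0.11 and 0.02.

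The share of reads outside genes moved with these levels, being highest in surface replicate 1 at 34.3% and, among the Tinaja libraries, in replicate 3 at 30.0%. With that share as a covariate 1301 genes passed, of which 923 were among the 2804 in the same direction. In that fit 68.6% of the calls under 1 CPM were higher in Tinaja, 59.8% from 1 to 10, 51.8% from 10 to 100, 61.9% from 100 to 1000 and 33.3% of 9 calls at 1000 CPM and over, so the rise of the share with abundance was not kept. At 1000 CPM and over 22 genes were higher and 2 lower without Tinaja replicate 3. There were 12 higher genes without Tinaja replicate 1, 13 without Tinaja replicate 2, 13 without surface replicate 1 and 11 without surface replicate 3. From 100 to 1000 CPM 168 genes were higher and 28 lower without Tinaja replicate 3. The higher genes of that class numbered 93 and 97 without Tinaja replicates 1 and 2, and 88 and 97 without surface replicates 1 and 3. The direction of the weaker genes also turned with single libraries. Under 1 CPM there were 84 higher and 75 lower genes without surface replicate 1, where the median of all genes tested became 0.06, and 113 higher and 86 lower without Tinaja replicate 2. From 1 to 10 CPM 299 genes were higher and 244 lower without surface replicate 1, 275 and 239 without Tinaja replicate 1, and 390 and 300 without Tinaja replicate 2. In the classes of 100 CPM and over, higher genes outnumbered lower genes without each of the 6 libraries. The part of these libraries in the order along the classes was not tested.

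The genes with the most reads also took more of the cavefish libraries at 5 dpf. The 10 most abundant genes of each library held 19.8%, 20.7% and 15.3% of its gene reads in Tinaja and 10.8%, 13.1% and 13.1% in surface fish. The 100 most abundant held 44.0%, 44.8% and 36.4% in Tinaja and 30.5%, 35.0% and 34.9% in surface fish. Neither measure overlapped between the morphs (exact two-sided permutation p = 0.1 for each, the smallest possible), although Tinaja replicate 3 lay close to surface replicates 2 and 3. For the 1000 most abundant genes the shares were 74.2%, 74.9% and 67.2% in Tinaja and 60.5%, 67.3% and 67.1% in surface fish, which overlapped (exact permutation p = 0.2). Genes from 100 to 1000 CPM took 31.9% ± 0.748 of the reads in Tinaja and 33.3% ± 1.32 in surface fish (SD, n = 3). The class from 10 to 100 CPM took 22.7% ± 3.26 in Tinaja and 28.7% ± 3.23 in surface fish, and that of 1000 CPM and over 42.0% ± 4.77 and 33.4% ± 2.9 in the same order, neither of which overlapped (exact permutation p = 0.1 for each). At 5 dpf the difference in composition thus lay between the few genes at the top and the many at moderate levels. From 10 to 100 CPM it was narrow between Tinaja replicate 3, at 26.4%, and surface replicate 2, at 26.7%. In each morph the library with the most reads outside genes had the lowest share in the 100 most abundant genes, and this was not tested. At 7 dpf that share was 45.0%, 40.5% and 37.6% in Tinaja and 40.5%, 42.4% and 44.8% in surface fish, with overlap.

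Of the 108 genes at 1000 CPM and over, the 20 higher in Tinaja had log2 fold changes of 0.98 to 3.65, with a median of 1.84 and edgeR adjusted p values of 0.00652 to 0.0904. In 19 of the 20 the morphs did not overlap. Tinaja replicate 3 was the Tinaja library nearest to surface fish in 17 of the 20. The gene with the most reads of all, at 38226, 43040 and 19847 CPM in Tinaja and 13717, 21636 and 20100 CPM in surface fish, did not pass (log2 difference 0.87, SE 0.36, adjusted p = 0.153 in edgeR), and its libraries overlapped through Tinaja replicate 3. Among the 10 most abundant genes 4 were called, all higher in Tinaja, where 20.4% of the 108 genes of the class were called. This direction depended on the model. Once the share of reads outside genes was fitted as well, 3 genes of the class passed as higher and 6 as lower. Neither of the abundant higher genes described next passed in that fit.

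ENSAMXG00000012267, the most abundant called gene and the second of all tested genes, was at 27004, 47558 and 11588 CPM in Tinaja, against 8104, 8881 and 5623 CPM in surface fish. All 3 Tinaja libraries lay above all surface libraries, but they spanned a wide range and the lowest, replicate 3, stood near the surface level. The log2 fold change was 1.93 (SE 0.46, adjusted p = 0.0246 in edgeR), a 3.81-fold difference. ENSAMXG00000008063, the third most abundant gene, was at 26602, 23507 and 18084 CPM in Tinaja, against 8228, 10405 and 7326 CPM in surface fish. Its libraries were closer together within each morph, and the log2 fold change was 1.39 (SE 0.35, adjusted p = 0.0299 in edgeR). When the share of reads outside genes entered as a covariate, neither passed, at log2 fold changes of 1.07 and 1.011 and adjusted p values of 0.327 and 0.171, the highest of 22 alternatives that began at 0.00016 and 0.000191. ENSAMXG00000008063 also did not pass without surface replicate 3 (adjusted p = 0.108) or Tinaja replicate 1 (adjusted p = 0.11).

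Lower genes were rare at this level on the TMM scale without a covariate. At 1000 CPM and over 18 genes were higher and 10 lower with library totals. With reads outside genes as a covariate 3 were higher and 6 lower. ENSAMXG00000038471, 78th in abundance, was at 281, 111 and 273 CPM in Tinaja, against 1491, 2423 and 3304 CPM in surface fish, a log2 fold change of -3.44 (SE 0.6, adjusted p = 0.00628 in edgeR). It was 10.9-fold lower in Tinaja, the groups were far apart, and it passed in all 22 alternatives run, with log2 fold changes of -3.76 to -3.11 and an adjusted p of 2.35e-08 to 0.0314. ENSAMXG00000016035, 85th in abundance, was at 532, 897 and 348 CPM in Tinaja and 1350, 2204 and 1902 CPM in surface fish (log2 difference -1.62, SE 0.4, adjusted p = 0.0299 in edgeR). Its lowest surface library stood above its highest Tinaja library, and it passed in 21 of 22 alternatives, with an adjusted p of 0.000685 to 0.117, the exception being the fit without Tinaja replicate 1.

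**Figure D3:**
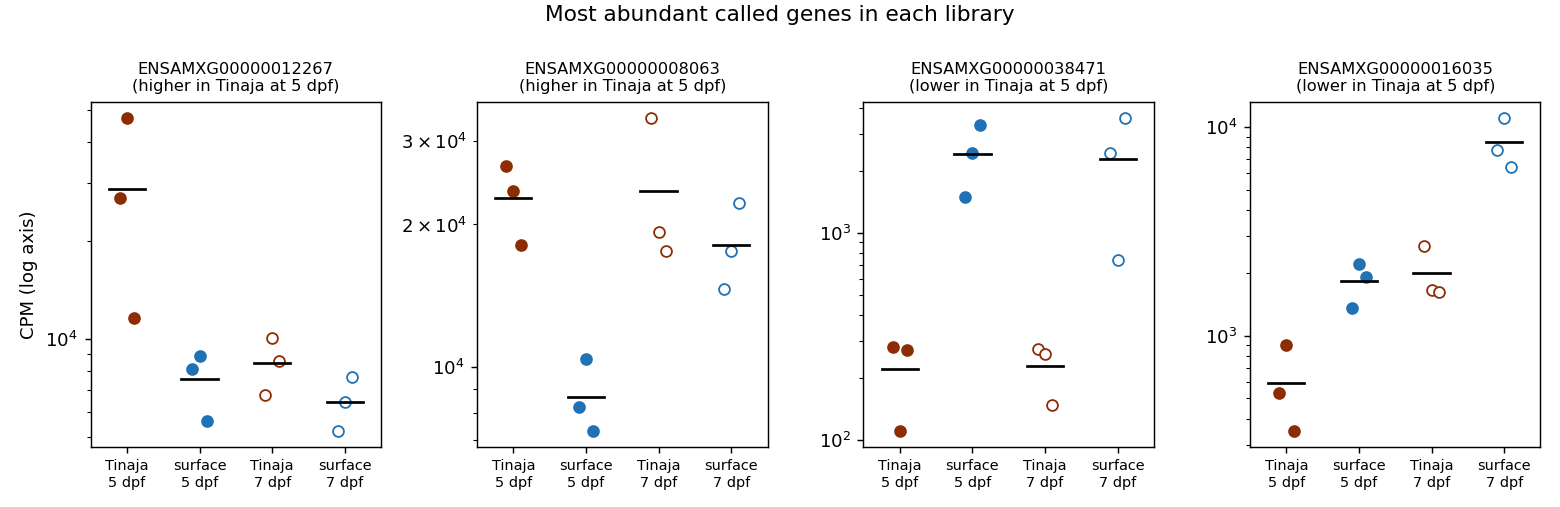
CPM (log axis) of the 2 most abundant higher and the 2 most abundant lower genes in each library, with a line at the mean of each group of 3 and open symbols for 7 dpf. At 5 dpf the morphs do not overlap in any of the 4 genes. At 7 dpf they remain apart for ENSAMXG00000038471 and ENSAMXG00000016035 and overlap for the other two.

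Most tested genes differed little between the morphs, and large fitted differences were most frequent among the weak genes that passed the filter. Of all tested genes 13395 (76.4%) differed by less than 2-fold, 2568 by 2 to 4-fold, 1232 by 4 to 16-fold and 345 (1.97%) by 16-fold or more in the fitted values. Fitted differences of at least 2-fold were found for 51.5% of the genes under 1 CPM, 26.9% from 1 to 10, 13.1% from 10 to 100, 17.5% from 100 to 1000 and 23.1% at 1000 CPM and over. The absolute log2 fold change of the median gene was 1.04, 0.51, 0.34, 0.37 and 0.52 in these classes, and the median SE was 0.83, 0.42, 0.28, 0.35 and 0.38. Large fitted differences of weak genes thus came with large errors. The filter also kept weak genes that were high in a single group and dropped those weak in every group. The share of 51.5% under 1 CPM therefore depends in part on the filter. Genes from 10 to 100 CPM were measured with the smallest error.

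The smallest difference that passed also varied by class, as did the number of genes it was taken from. No gene under 1 CPM passed below 2.79-fold, while the smallest passing difference was 1.49-fold from 1 to 10 CPM, 1.42-fold from 10 to 100, 1.54-fold from 100 to 1000 and 1.98-fold at 1000 CPM and over. In all 1915 genes differed by at least 2-fold without passing, 736 of them under 1 CPM and 882 from 1 to 10 CPM. Such genes are not shown to be alike in the morphs. Of the fitted differences between 2 and 4-fold, 3.72% passed under 1 CPM, 40.9% from 1 to 10, 71.7% from 10 to 100, 63.7% from 100 to 1000 and 81.2% at 1000 CPM and over. At 16-fold and more 95.1% passed over all classes.

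The called genes accordingly differed in size by class. From 10 to 100 CPM 37.5% of the called genes differed by less than 2-fold and 2.94% by 16-fold or more. Under 1 CPM none of the called genes differed by less than 2-fold and 37.1% differed by 16-fold or more, where 50 of the 114 genes of that size had no read in a morph. At 1000 CPM and over 13 of the 22 called genes differed by 2 to 4-fold and 8 by 4 to 16-fold. Direction by size within a class was not tested and is given as values. From 10 to 100 CPM 57.8%, 65.0%, 60.7% and 65.6% of the called differences were higher in Tinaja, from smallest to largest size. From 1 to 10 CPM the shares were 50.7%, 50.4%, 37.7% and 47.1% in that order. The third of these comes from 158 higher and 261 lower genes of 4 to 16-fold. As described above, the direction of the calls of that class turned when single libraries were left out. Over all classes the calls of 16-fold and more were split evenly, with 165 higher and 163 lower.

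**Figure D4:**
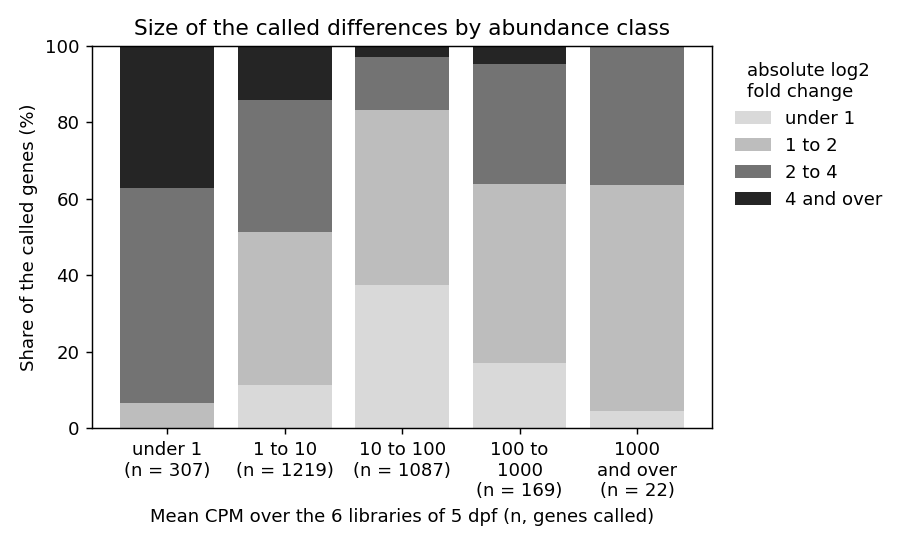
Share of the called genes (y axis, %) in each class of absolute log2 fold change (shades), by abundance class (x axis, mean CPM, with the number of called genes). The darkest part, a log2 fold change of 4 and over or 16-fold, is 37.1% under 1 CPM, 2.94% from 10 to 100 CPM, 4.73% from 100 to 1000 CPM and 0% at 1000 CPM and over.

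A single gene at 1000 CPM and over had a fitted difference of 16-fold or more, and it missed the threshold. It was at 5005, 5390 and 902 CPM in Tinaja and 354, 190 and 135 CPM in surface fish, a log2 difference of 4.06 with an SE of 1.44 (adjusted p = 0.102 in edgeR). The groups did not overlap, and Tinaja replicate 3 was again the lowest of its group. The largest difference among the called genes of that class belonged to a gene at 7230, 11407 and 2047 CPM in Tinaja and 887, 431 and 325 CPM in surface fish (log2 difference 3.65, SE 0.94, adjusted p = 0.0344 in edgeR). Both were chosen for description after their values were seen.

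The spread between libraries of a morph was similar in Tinaja and surface fish. The median SD of log2(CPM + 0.5) over 3 libraries was 0.34 in Tinaja and 0.34 in surface fish from 1 to 10 CPM, 0.30 and 0.26 from 10 to 100 CPM in the same order, 0.38 and 0.41 from 100 to 1000 CPM, and 0.39 and 0.48 at 1000 CPM and over. The most abundant genes were thus not the most stable between pools. On the same scale the absolute difference between the morphs of the median gene was 0.34 from 10 to 100 CPM and 0.52 at 1000 CPM and over. Both values lay somewhat above the median SD of either morph. From 100 to 1000 CPM the difference was 0.38, at the level of the SD values. The SD describes single libraries and not a difference between means of 3.

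At the other end were genes with reads in every library of a morph and none in the other. With at least 10 reads in each library, 30 genes were read in Tinaja and not in surface fish, and 29 in surface fish and not in Tinaja. The 30 genes of Tinaja had mean levels of 0.76 to 25.8 CPM with a median of 1.91 CPM, and the 29 genes of surface fish 0.911 to 79.0 CPM with a median of 3.87 CPM. Against a floor of 3 counts over the group without reads, the genes of Tinaja were at least 11.8-fold to at least 407-fold higher in Tinaja, and those of surface fish at least 16.2-fold to at least 1399-fold lower in Tinaja. Such bounds cover counting error only. Reads of both morphs were aligned to the same genome, astMex_2.0. An effect of sequence differences between the morphs on these counts was not tested. These genes were chosen by their reads at 5 dpf, so no test of that difference is given for them. Summed over the set, the genes of Tinaja reached 117, 92.6 and 199.8 CPM in Tinaja replicates 1 to 3, and the genes of surface fish 214, 255 and 243 CPM in surface replicates 1 to 3. They therefore made up a small part of the reads in either morph. With every library thinned to the depth of the smallest, 18 genes were read in Tinaja alone and 37 in surface fish alone. Without Tinaja replicate 1, 45 genes were read in surface fish alone. Leaving out any library loosens the rule, so such a count cannot fall.

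The reads of the same genes at 7 dpf were not used to choose them. Of the 30 genes of Tinaja, 22 had reads in all Tinaja libraries of 7 dpf and 16 had no read in the surface libraries of that age. Of the 29 genes of surface fish, 21 had reads in all surface libraries of 7 dpf and 17 had none in Tinaja. Both conditions were met by 12 and 14 genes. In 26 of the 30 and 25 of the 29 genes the other morph had at most 5 reads in all at 7 dpf. The gene with the highest level and the largest bound among those of surface fish was not 1 of these. It had 5370, 1 and 3 reads in Tinaja replicates 1 to 3 of 7 dpf, against 6186, 2446 and 4537 reads in surface replicates 1 to 3, so that a single Tinaja library reached the surface level. It was chosen for description after its values were seen.

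At 7 dpf 3210 of 17540 genes passed between the morphs (18.3%), 1858 higher (10.6%) and 1352 lower (7.71%) in Tinaja. Of the genes called at 5 dpf 1006 passed at 7 dpf in the same direction, which is 35.9% of the calls at 5 dpf and 31.3% of those at 7 dpf, and 36 passed in the opposite direction. The shared number was 595 without Tinaja replicate 1, 670 without surface replicate 2 and 623 without surface replicate 3 of 5 dpf, and 597 without Tinaja replicate 3 and 662 without surface replicate 1 of 7 dpf. The comparisons share no library, but they share the filter on low counts, the scaling and the dispersion estimates of the fit. Of the 1538 higher genes 665 (43.2%) were higher at 7 dpf as well, and of the 1266 lower genes 341 (26.9%) were lower, against 10.6% and 7.71% of all genes. In the higher genes the log2 fold change had a median of 1.54 at 5 dpf and of 0.88 at 7 dpf, and in the lower genes of -1.85 at 5 dpf and of -0.61 at 7 dpf. The genes were chosen by their values at 5 dpf.

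Calls at both ages were most frequent among the largest differences. Of the calls of 16-fold or more, 57 of 165 higher and 57 of 163 lower genes lay under 1 CPM. Such weak genes could enter the test through their 7 dpf reads, since the filter used both ages. Of the higher genes 29.0% of those under 2-fold, 36.2% from 2 to 4-fold, 54.8% from 4 to 16-fold and 73.9% of those of 16-fold or more were called higher at 7 dpf. Of the lower genes the shares were 18.7%, 24.0%, 22.01% and 60.1%. For higher genes of 16-fold or more the medians of log2 fold change were 5.97 at 5 dpf and 5.08 at 7 dpf, and 97.6% of them kept their sign. For lower genes of that size the medians were -5.32 and -3.73, and 94.5% kept their sign. Over all tested genes 49.5% were positive and 50.5% negative at 7 dpf. Of the 328 calls of 16-fold or more 84 had no read in a morph at 5 dpf, so their fitted values are not measured sizes.

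**Figure D5:**
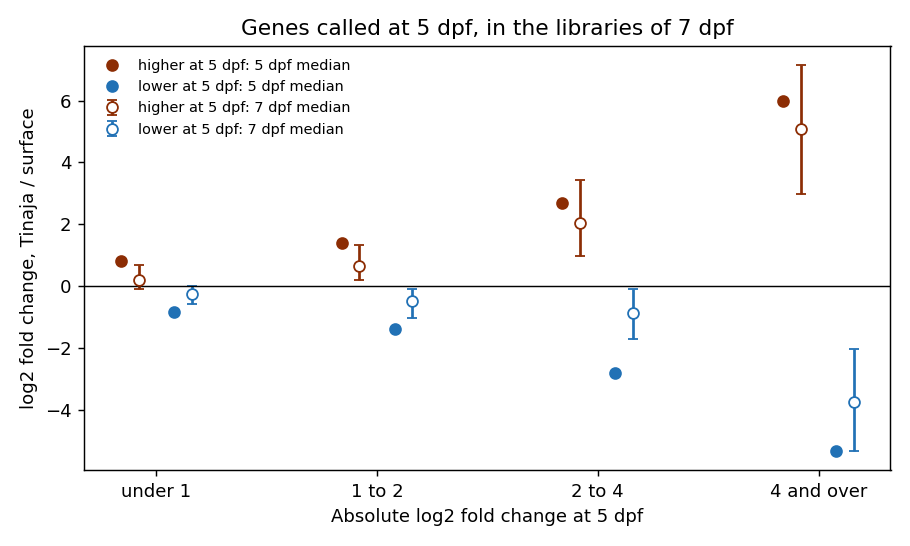
Median log2 fold change, Tinaja over surface fish (y axis), of the genes called at 5 dpf, by the absolute log2 fold change at 5 dpf (x axis). Filled symbols are medians at 5 dpf, and open symbols are medians at 7 dpf with bars from the lower to the upper quartile. The 7 dpf medians lie nearer to 0 in every size class, at 5.08 and -3.73 in the largest. Values are fitted, and 84 calls of the largest class had no read in a morph at 5 dpf.

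Among the higher genes, those of the weaker classes, where the largest differences lay, were called at both ages more often. The filter on low counts used both ages, so weak genes could enter the test through their 7 dpf reads. With the 6 libraries of 5 dpf alone, 46 genes under 1 CPM were called higher, against 140 here. The shares called at both ages were not recomputed for that fit. Of those called higher in Tinaja at 5 dpf, 65% under 1 CPM, 49.8% from 1 to 10, 36.8% from 10 to 100, 31.8% from 100 to 1000 and 10% at 1000 CPM and over were called higher at 7 dpf, against 10.6% of all tested genes. The share in the highest class was thus near that of all tested genes. The share of all genes of each class called higher at 7 dpf is not given here, so no class is set against its own background. Of its 20 higher genes 2 passed at 7 dpf, 15 had a positive log2 fold change there, and their median was 0.35. Both abundant lower genes passed at both ages. The lower genes of the classes from under 1 to 1000 CPM passed again in 25.1%, 27.6%, 26.2% and 27.8% of cases.

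The 4 genes given by identifier showed both patterns. ENSAMXG00000012267 was at 6719, 10101 and 8577 CPM in Tinaja and 5228, 6408 and 7672 CPM in surface fish at 7 dpf, where the morphs overlapped (log2 difference 0.40, SE 0.44, adjusted p = 0.591 in edgeR). ENSAMXG00000008063 was at 33643, 19307 and 17619 CPM in Tinaja and 14593, 17556 and 22231 CPM in surface fish at that age, with overlap (log2 difference 0.38, SE 0.34, adjusted p = 0.499 in edgeR). Surface fish thus stood at 18126 ± 3851 CPM at 7 dpf, against 8653 ± 1583 CPM at 5 dpf (SD, n = 3). ENSAMXG00000038471 stayed lower in Tinaja, at 274, 261 and 148 CPM, against 2445, 743 and 3608 CPM in surface fish (log2 difference -3.31, SE 0.6, adjusted p = 0.00699 in edgeR). ENSAMXG00000016035 was at 2703, 1647 and 1615 CPM in Tinaja and 7771, 11118 and 6447 CPM in surface fish (log2 difference -2.09, SE 0.41, adjusted p = 0.0114 in edgeR). It was more abundant at 7 than at 5 dpf in both morphs and stayed lower in Tinaja. For none of the 4 did the difference between the morphs itself differ between the ages at the threshold (edgeR adjusted p = 0.283, 0.327, 0.946 and 0.678 in the order given), which does not show that it was the same.

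The age change of the genes called at 5 dpf is given as values only, since it shares the 5 dpf libraries with the comparison. Genes higher in Tinaja had a median log2 change to 7 dpf of -0.15 in Tinaja and 0.33 in surface fish, against 0.04 and -0.05 over all tested genes. Genes lower in Tinaja had medians of 0.36 in Tinaja and -0.72 in surface fish. Among the 20 abundant higher genes the medians were 0.28 in Tinaja and 1.36 in surface fish.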

How the data were processed

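Pooled larval livers were sequenced by the authors as stranded polyadenylated RNA libraries with single reads of 75 bp. The methods and processing notes name STAR 2.7.3a as the aligner, astMex_2.0 as the genome, Ensembl 102 as the annotation and RSEM 1.3.0. What the authors deposited are whole-number counts of 27420 genes, beside 4 summary rows in STAR's format. Summary rows were left out of library sizes and tests. No strand setting is given in the sources used here, so overlapping and antisense genes are uncertain, and near-identical paralogues may lose reads. Columns were mapped to samples by their titles, and all 12 were used.

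The counts were tested with edgeR 4.0.16 in R 4.3.3 (glmQLFit and glmQLFTest, robust, TMM factors, filterByExpr), with all 12 libraries in a model of 4 group means, 8 residual degrees of freedom before moderation. SE values were derived from F statistics. Calls used an adjusted p under 0.1. The same-numbered libraries of the morphs were tried as a block. DESeq2 1.42.0 and limma-voom (limma 3.58.1) were alternatives. Tests were checked on simulated counts. Genes given by identifier were the 2 most abundant higher and lower genes at an adjusted p under 0.1, at least 2-fold and with groups that do not overlap. The comparison, classes and rules were chosen with earlier results of these data known. Depth ran from 10.6 to 20.8 M gene reads at 5 dpf, and precision is lowest under 1 CPM.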

Additional observations from a re-analysis of the deposited data

Results flagged for a closer look

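The difference between the morphs was tested for a change between 5 and 7 dpf (edgeR, interaction of morph and age, adjusted p under 0.1). It changed for 7 of the 2804 genes called at 5 dpf, 5 lower and 2 higher in Tinaja at 5 dpf, of 8 genes over all. At an unadjusted p under 0.05 the test counted 2769 of all 17540 genes. The test reuses the 5 dpf values by which the 2804 genes were chosen, so its counts among them are a description. Of the 7 genes 6 lay between 10 and 100 CPM. Their changes in log2 fold change ran from -2.44 to 5.80. The most abundant was at 24.1, 21.0 and 19.5 CPM in Tinaja and 107, 65.7 and 66.4 CPM in surface fish at 5 dpf, and at 85.7, 27.0 and 49.2 CPM in Tinaja and 5.66, 11.3 and 10.8 CPM in surface fish at 7 dpf, so the morphs did not overlap at either age and changed order.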

How the results depend on the processing

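Counts of 2804 passing genes and their classes were recomputed under 12 other settings and without each of the 12 libraries. At an adjusted p under 0.05, 1610 genes passed, 933 higher and 677 lower in Tinaja, and 555 were shared with 7 dpf. With library totals as the scale 708 were higher and 2519 lower, and the class medians of log2 fold change were -0.59, -0.47, -0.39, -0.16 and 0.041 from the lowest to the highest class. With reads outside genes as a covariate 1301 passed, 743 higher and 558 lower, 1108 of them by 2-fold, and 121, 495, 571, 105 and 9 by class. Under 1 CPM 171 genes passed with the 6 libraries of 5 dpf alone and 177 after thinning to the smallest library, which left 18 genes read in Tinaja alone. Such genes numbered 255 in Tinaja and 196 in surface fish with at least 1 read, and 56 and 47 with at least 5 reads. DESeq2 passed 3649 genes, limma-voom 2698, and edgeR without a filter on low counts 2512. The cause of these differences was not tested.

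Leaving out 1 library at a time gave 1238 to 3532 genes, 791 to 1958 higher and 447 to 1574 lower, and 1166 to 2584 by 2-fold. By class the counts ran from 125 to 416, 514 to 1460, 487 to 1402, 98 to 227 and 13 to 27, and the medians of the lowest classes from -0.45 to 0.059 and from -0.12 to -0.018. The genes shared with 7 dpf numbered 595 to 1327, and the genes read in surface fish alone 32 to 45. Counts of the latter kind cannot fall when a library is left out, since the rule is then looser. With the replicate number as a block (replicate block), 2142 genes passed, 2082 of them among the 2804. Same-numbered libraries of the morphs deviated from their group means with correlations of -0.18, -0.13 and -0.27, so the numbers are not taken to pair the samples. The class under 1 CPM had the largest median SE, at 0.83, and no difference under 2.79-fold passed there.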
